A study of Rattus norvegicus with 18 samples.

Results

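Heart allografts from recipients given cyclosporine plus an allochimeric peptide were compared with untreated heart allografts, 3 arrays against 3, out of 18 arrays in the series. The members were chosen by the titles of the samples and paired by the day after transplantation, 1, 3 or 7. In the treated group, recipients received oral cyclosporine at 10 mg/kg/day on days 0 to 2, a course described as below the therapeutic dose, and 1 mg/kg of the allochimeric peptide [a1h1/u]-RT1.Aa into the portal vein when the heart was transplanted. In the untreated group, the same transplant was done with no treatment. The donors of both groups were Wistar Furth rats, which carry the class I antigen RT1.Au, and the recipients were ACI rats, which carry RT1.Aa. All were adult males, and the heart was placed in the abdomen beside the recipient's own. Each combination of treatment and day is 1 array, and the labels do not say whether an array holds 1 graft or a pool. No graft received the peptide without cyclosporine, so the 2 agents cannot be told apart in this comparison. The other 3 heart arrays of the series, from recipients given cyclosporine alone, share the estimate of the spread and are set beside the treated grafts where they bear on a result.

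A mismatched heart is attacked first by innate cells drawn by the injury of cold storage and reperfusion, and within days by recipient T cells that recognise donor class I and class II molecules. Activated T cells release interferon-gamma, which makes the graft express chemokines, antigen-processing genes and guanylate-binding proteins. Cyclosporine binds cyclophilin and blocks calcineurin, so that the transcription factor NFAT stays out of the nucleus and T cells make less interleukin-2. An allochimeric class I molecule joins donor-type residues to the recipient's own antigen, and it is given to change how recipient T cells see the donor. A whole graft holds heart muscle, vessels, fibroblasts and infiltrating cells, so in these data fewer cells of a type and less RNA per cell cannot be told apart.

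The signals are linear intensities as deposited, and differences are given on the scale log2(signal + 16), treated minus untreated. Median signal lay between 210.2 and 216 on the treated arrays and between 210.3 and 231 on the untreated arrays. The 3'-to-5' signal ratio of the actin control, which is higher where RNA is more degraded, was 2.44 on day 1, 1.82 on day 3 and 1.43 on day 7 in treated grafts, against 1.84, 1.64 and 1.41 in untreated grafts. For the GAPDH control the ratio was 1.57, 1.63 and 1.51 in treated grafts, against 1.50, 1.65 and 1.54 in untreated grafts. The part of RNA quality in the day 1 results was not tested. All 5 heart muscle markers measured, Myh6, Tnnt2, Tnni3, Myl3 and Nppa, were present, with a summed signal of 55964 to 63179 in treated and 51866 to 61489 in untreated grafts. The 6 summed T cell markers were at 1222, 1437 and 19825 in treated grafts, against 1058, 2179.7 and 15865 in untreated grafts, so that T cell RNA was plentiful on day 7 in both. The treated graft of day 7 also held transcripts of pancreatic digestive enzymes, with 3 summed markers at 1664 against 198 in the untreated graft of that day, and these are described with the genes of day 7.

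Across the genome, no probe set separated treated from untreated grafts after correction for multiple testing. Of 19734 probe sets tested with limma, 0 passed an adjusted p of 0.05 (0.00% called), and the lowest adjusted p was 0.169. At an unadjusted p below 0.05, 1949 were lower in treated grafts (9.88% of those tested) and 1208 were higher (6.12%), where 987 in all would be called if no probe set differed and tests were exact. That split is set by the scaling: with quantile normalization it was 1553 lower and 1522 higher, and with each array centred on its median it was 1117 lower and 1978 higher. No direction can therefore be read from the count over all probe sets. The median day 3 difference over all 11151 genes was -0.02 as deposited, 0.00 with quantile normalization and 0.07 with median centring. Counts of gene groups below are those as deposited, with counts under another scaling in parentheses. The shares of all genes set beside them are as deposited only, and they too move with the scaling. Of probe sets tested, 54.8% had a mean difference below 0 as deposited, 49.6% with quantile normalization and 41.2% with median centring.

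The differences were larger on later days. Over the 11151 genes tested, 1 probe set each, the SD of the same-day difference was 0.18 on day 1, 0.28 on day 3 and 0.29 on day 7. A difference of -1 or below was seen in 14 genes on day 1 (0.126%), 63 on day 3 (0.565%) and 30 on day 7 (0.269%). A difference of 1 or above was seen in 4 genes on day 1 (0.0359%), 18 on day 3 (0.161%) and 97 on day 7 (0.870%). Large negative differences thus outnumbered positive ones on days 1 and 3, and positive ones were in the majority on day 7. On all 3 days, 2376 genes (21.3%) were lower and 1714 genes (15.4%) were higher in treated grafts. All 3 treated arrays lay below all 3 untreated arrays for 250 genes (2.24%) and above them for 144 genes (1.29%).

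**Figure D1:**
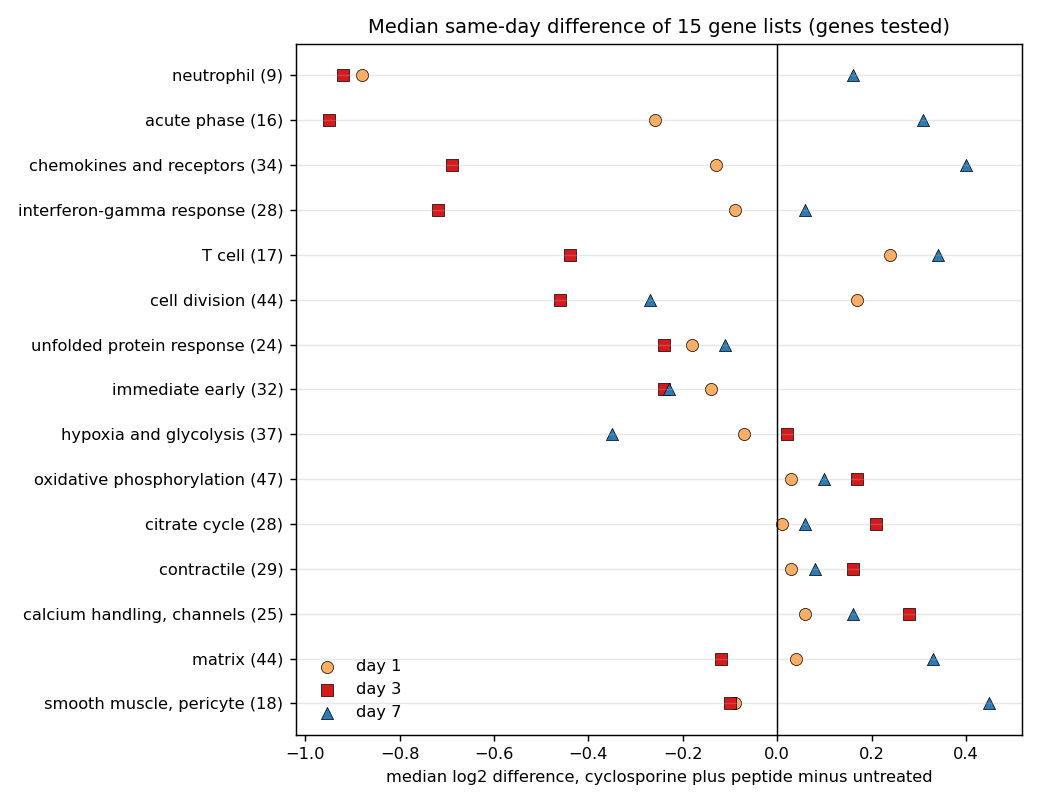
Median same-day log2 difference, treated minus untreated, for 15 gene lists on days 1, 3 and 7, with the number of genes tested in each list in parentheses. The neutrophil median sits at -0.88 and -0.92 on days 1 and 3. The oxidative phosphorylation median lies above 0 on every day, though only at 0.03 on day 1, when 13 of the 47 genes were lower.

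Among genes lower on every day, the one with the largest mean difference was Slc47a1, which encodes the exporter MATE1 that moves organic cations and drugs out of cells. Its signal was 148, 191 and 224 in treated grafts on days 1, 3 and 7, against 329, 342 and 1065 in untreated grafts. The groups did not overlap, and the gap was widest on day 7. The mean of the 3 same-day differences was -1.34 ± 0.25 (SE, adjusted p = 0.172, limma). Slc19a1, the reduced folate carrier, had 234, 230.3 and 328 in treated grafts against 371, 378 and 478 in untreated grafts, a mean difference of -0.61 ± 0.07 (adjusted p = 0.169). Here too the groups did not overlap, and the difference was nearly the same each day. Both carriers were also lower under cyclosporine alone, Slc47a1 by -0.60, -0.20 and -1.51 and Slc19a1 by -0.26, -0.36 and -0.13 against the same untreated arrays.

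Il1rap and Pvr were also among the genes lower on every day. Il1rap, the co-receptor shared by interleukin-1 and interleukin-33, had 319, 319.9 and 351 in treated grafts against 469, 443 and 588 in untreated grafts. Pvr, the surface ligand of the lymphocyte receptors DNAM-1 and TIGIT, had 435, 492 and 571 in treated grafts against 696, 709.6 and 872 in untreated grafts. In both genes every treated array lay below every untreated one, with mean differences of -0.57 ± 0.08 (adjusted p = 0.169) for Il1rap and -0.59 ± 0.11 (adjusted p = 0.172) for Pvr. Tgm1, a transglutaminase that cross-links proteins, stood at 651, 354 and 205 in treated grafts against 959, 929 and 424 in untreated grafts (mean difference -0.96 ± 0.15, adjusted p = 0.169). Its signal was lower on later days in both groups, so the groups overlap although each day's difference is negative. Prag1, Ociad2 and Tango6 were also below in every array, with mean differences of -0.75 ± 0.12, -0.56 ± 0.07 and -0.50 ± 0.08 and an adjusted p of 0.169 each. Angptl4, an inhibitor of lipoprotein lipase, Ramp3, a partner subunit of the adrenomedullin receptor, and Npy1r, a receptor of neuropeptide Y, were lower each day by between -0.44 and -0.69. Fmo5, Plpp2, Eml2 and the acute phase gene Orm1 complete the 15 genes whose smallest daily difference was largest, with daily differences between -0.48 and -0.95.

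Of the 15 genes higher on every day by the same rule, 3 are given in full. Mapt, which encodes the microtubule protein tau, had 736, 840.4 and 466 in treated grafts against 463, 464 and 343 in untreated grafts (mean difference 0.64 ± 0.14, adjusted p = 0.195). The lowest treated array was just above the highest untreated one. Col6a6, a chain of collagen VI, had 225, 502 and 312 in treated grafts and differed by 0.38, 0.39 and 2.11, so most of its mean difference of 0.96 ± 0.31 (adjusted p = 0.233) came from day 7. Ky, a muscle protein needed for normal muscle growth in mice, stood at 746, 590.1 and 246 in treated grafts against 561, 366 and 168 in untreated grafts (0.53 ± 0.11, adjusted p = 0.195). Rab3a, a GTPase of regulated secretion, Doc2g, Asb5, Ppp1r14c, Wipf3, Prcd, Nxpe1 and Zfp853 were each higher by at least 0.30 on every day. The other 4 of the 15 carry provisional names, LOC100910949, LOC102553868, LOC100910558 and LOC102549303.

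**Figure D2:**
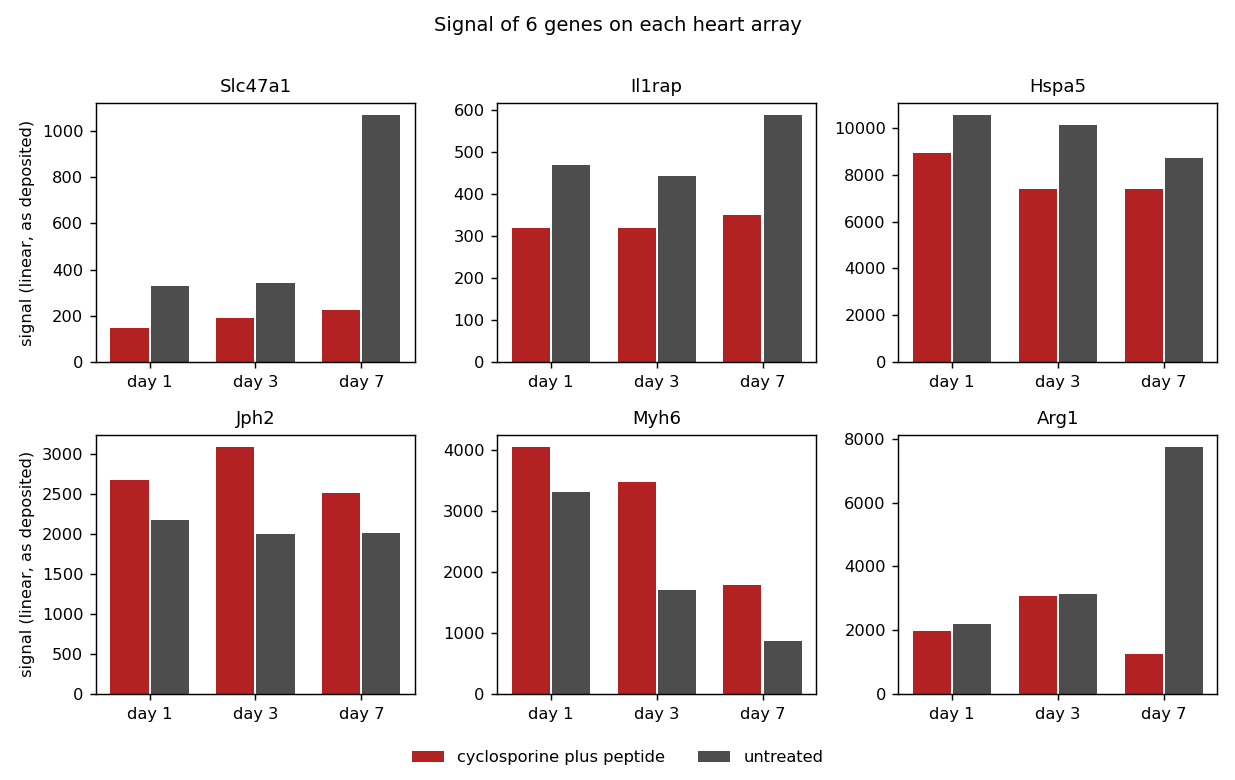
Linear signal of 6 genes on each of the 6 arrays, with treated grafts in red to the left of untreated grafts in grey on each day. Slc47a1, Il1rap and Hspa5 are lower and Jph2 and Myh6 higher in the treated graft of every day, while Arg1 differs mainly on day 7, with 1247 in the treated and 7743 in the untreated graft.

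Transcripts of neutrophils were lower in treated grafts on days 1 and 3, and not on day 7. S100a9, which with S100a8 forms the calprotectin that fills the neutrophil cytosol, had 3170.3, 2973 and 885 in treated grafts against 6020.3, 6403 and 503 in untreated grafts. S100a8 had 1368, 1182 and 347 in treated grafts against 2524, 2864 and 295 in untreated grafts. Both were lower on the first 2 days and higher on day 7, when the signal of both groups was small. Cxcr2, the receptor of the neutrophil-attracting chemokines, had 107, 121 and 68.2 in treated grafts against 222, 210.1 and 66.9 in untreated grafts. Mmp9, a gelatinase stored in neutrophil granules, was lower on all 3 days, at 272, 147 and 214 against 513, 488 and 290.0 in untreated grafts, and was the 1 tested gene of the list with no overlap (mean difference -0.97 ± 0.25, adjusted p = 0.201). Camp, which encodes the antimicrobial cathelicidin and did not pass the filter on low signal, also had no overlap, with 47.8, 63.0 and 89.7 in treated grafts against 96.3, 97.8 and 94.4 in untreated grafts. These signals are below the 40th percentile of every array. Of the other untested members, Padi4 differed by -0.44, -0.27 and -0.06, and Cxcr1 by 0.23, -0.19 and 0.19. Of 12 neutrophil genes with a probe set, 9 passed the filter on low signal, and all 9 were lower on day 1 and on day 3 under each scaling, against 53.7% and 54.8% of all genes. Their median difference was -0.88 on day 1, -0.92 on day 3 and 0.16 on day 7. By unadjusted p below 0.05, 5 of the 9 were lower over all days, where 9.83% of all genes were. Pglyrp1, a bactericidal protein of neutrophil granules, showed the lowest day 1 difference of all genes, -1.64, with 145 in the treated and 485 in the untreated graft. Under cyclosporine alone S100a9 differed from the same untreated grafts by -1.42, -1.25 and -0.21.

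The acute phase genes, which interleukin-1 and interleukin-6 induce, were lower mainly on day 3. Saa3, a serum amyloid A made in tissues, had 273, 192 and 713 in treated grafts against 338, 1594 and 559.6 in untreated grafts, and its day 3 difference of -2.96 was the lowest of any gene on any day. Lcn2, the iron-scavenging lipocalin, had 4403, 3266 and 3299 in treated grafts against 5378, 12652 and 1735 in untreated grafts. The complement gene C3 had 488, 879 and 8842 in treated grafts against 635, 3057 and 3603 in untreated grafts, so it was lower on day 3 by -1.78 and higher on day 7 by 1.29. Haptoglobin, Hp, was lower on days 1 and 3, with 165 and 260.4 in treated grafts against 386 and 895 in untreated grafts. Of 16 acute phase genes tested, 14 were lower on day 3 and 13 were higher on day 7, against 54.8% and 47.7% of all genes. Their medians were -0.26, -0.95 and 0.31 on the 3 days. The untreated graft of day 3 also held more of the fat cell markers, a summed 1819.7 against 573 in the treated graft of that day, and the part of this in the acute phase values was not tested.

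Among early cytokines, Tnf was lower on days 1 and 3, at 125 and 95.2 in treated grafts against 244 and 184 in untreated grafts, and equal within 0.04 on day 7. Il10, which restrains macrophages and T cells, had 28.7, 27.6 and 195 in treated grafts against 31.8, 109 and 273 in untreated grafts. Its signals of days 1 and 3 are below the 40th percentile of every array. Il1rn, the natural antagonist of the interleukin-1 receptor, had 219, 187 and 648 in treated grafts against 291, 375 and 1224 in untreated grafts (mean difference -0.74 ± 0.14, adjusted p = 0.177). Il6 was lower by -0.45, -0.16 and -0.75, and the macrophage chemokines Ccl3 and Ccl4 by -0.28, -1.10 and -0.24 and by -0.64, -0.76 and -0.31. Il1b instead was lower on days 1 and 3 and higher on day 7, with 849.5, 1281 and 2479 in treated grafts against 1281, 2008 and 1849 in untreated grafts. Of 21 early cytokine genes tested, 18 were lower on day 3 (19 with quantile normalization, 17 with median centring), against 54.8% of all genes. In the mean, 15 were below 0 (13 with median centring), where 54.7% of all genes were.

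**Figure D3:**
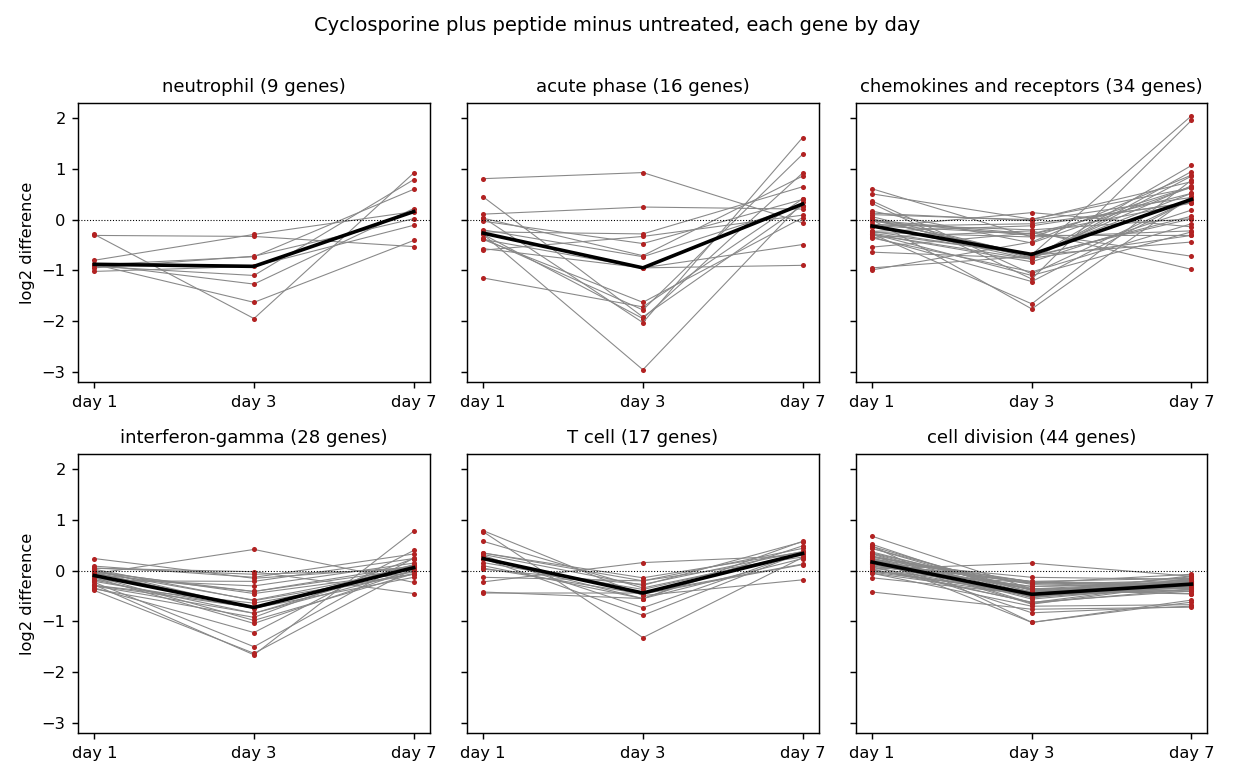
Same-day log2 difference of each tested gene of 6 immune and cell division lists, with thin grey lines joining the days of 1 gene and the thick black line joining the medians. In 5 of the 6 panels the median is lowest on day 3 and above 0 on day 7, while cell division genes stay below 0 on day 7.

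Interferon-gamma response genes were lower in the treated graft on day 3, and on day 7 both grafts expressed them at signals several times those of day 1. Cxcl9, a chemokine that interferon-gamma induces and that draws activated T cells, had 465, 545 and 10520.4 in treated grafts against 568, 1762 and 6117 in untreated grafts. Cxcl10 had 773, 996 and 9229 in treated grafts against 982, 2335 and 6970.4 in untreated grafts. Both were lower on day 3 and higher on day 7. Gbp2, a guanylate-binding protein of cell-autonomous defence, stood at 915, 1126 and 8935 in treated grafts against 1126, 1761 and 9357 in untreated grafts, and Ifng itself at 49.6, 44.5 and 389 against 64.3, 88.0 and 478. Irf1, the transcription factor that relays the signal, was lower by -0.73 on day 3, the peptide transporter Tap1 by -1.04 and the feedback inhibitor Socs1 by -1.50. All 28 genes of the list with a probe set were tested. On day 3, 27 of the 28 were lower (25 with median centring), with a median of -0.72, against 54.8% of all genes. On day 7 the median was 0.06, with 21 higher and 7 lower, or 16 higher and 12 lower after quantile normalization and 22 higher and 6 lower with median centring, so that the count on that day depends on the scaling. Ido1 was the 1 member that was higher on day 3, at a low signal of 46.5 in the treated and 30.7 in the untreated graft. The Ifng signals of days 1 and 3 were low too, below the 40th percentile of every array in both groups.

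Many promoters of this list hold the interferon-stimulated response element, shown here for Gbp2 and Cxcl10, which were both lower on day 3. The letters GAAA, any 2 bases and GAAA again were searched on both strands of the RefSeq promoters of rat build GRCr8, each running from 250 bases before to 50 bases after the start of a gene. They were in 1312 of 33469 promoters (3.92%), and in 13 of the 23 listed genes with a promoter (56.5%). The list was chosen for the interferon-gamma response, so its share describes the list and not the treatment. The capitals mark the match, which in Gbp2 lies on the other strand and begins 31 bases before the start, and which in Cxcl10 begins 243 bases before it. The Gbp2 window is chr2:234005477-234005776 and the Cxcl10 window is chr14:15988816-15989115, both on the plus strand.
Gbp2: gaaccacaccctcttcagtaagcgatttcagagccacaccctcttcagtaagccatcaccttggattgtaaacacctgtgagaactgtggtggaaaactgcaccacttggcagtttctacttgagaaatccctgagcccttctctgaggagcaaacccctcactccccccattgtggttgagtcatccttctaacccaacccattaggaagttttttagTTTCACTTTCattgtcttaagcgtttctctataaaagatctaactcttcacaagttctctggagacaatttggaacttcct
Cxcl10: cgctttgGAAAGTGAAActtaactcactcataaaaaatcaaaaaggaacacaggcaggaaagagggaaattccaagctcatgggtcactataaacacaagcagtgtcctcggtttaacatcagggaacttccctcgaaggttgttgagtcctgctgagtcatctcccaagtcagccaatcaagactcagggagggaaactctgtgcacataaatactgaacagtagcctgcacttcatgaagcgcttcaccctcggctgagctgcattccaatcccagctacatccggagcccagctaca

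Most T cell genes were higher in the treated grafts of days 1 and 7 and lower in that of day 3. Cd3e, a signalling subunit of the T cell receptor, had 135, 139.9 and 4918 in treated grafts against 73.0, 372 and 4118 in untreated grafts. Cd3d had 51.2, 84.1 and 2469 in treated grafts against 38.4, 149.7 and 1926 in untreated grafts. Signal was low on days 1 and 3 in both groups, with the untreated graft higher on day 3, and high on day 7 in both. Of 17 T cell genes tested, 13 were higher on day 1, against 46.3% of all genes, with a median of 0.24. Several of these, such as Cd3d, Cd5 and Sh2d1a, were below the 40th percentile of both day 1 arrays, so the count rests in part on low signal. On that day 22 of the 28 interferon-gamma genes were lower, against 53.7% of all genes, with a median of -0.09. On day 3, 16 of the 17 T cell genes were lower, against 54.8% of all genes, with a median of -0.44. On day 7, 16 were higher, against 47.7% of all genes, with a median of 0.34. The counts of all 3 days held under each scaling. Cd8a went the other way on day 7, at 2098 in the treated and 2379 in the untreated graft. Genes of the killing machinery differed less on day 7. Gzmb, which encodes granzyme B, had 2184 in the treated and 2566 in the untreated graft, Prf1, which encodes perforin, had 3321 and 3151, and Gzma had 1814 and 2127. Of the 16 cytotoxic and natural killer genes tested, 11 were higher on day 7, against 47.7% of all genes.

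Genes tied to calcineurin, the target of cyclosporine, showed no common shift. The catalytic subunits Ppp3ca and Ppp3cb and the factors Nfatc1, Nfatc2 and Nfatc3 had mean differences between 0.07 and 0.15. The NFAT-driven genes Tnf, Ifng and Xcl1 were lower on day 3 by -0.85, -0.78 and -1.76, and by day 7 they differed by -0.04, -0.28 and 0.46. Both day 3 signals of Ifng, 44.5 and 88.0, were below the 40th percentile of every array. Rcan1, a direct target of NFAT in heart muscle, had 7507, 7163 and 7435 in treated grafts against 9738, 6829 and 8255 in untreated grafts, so it was lower only on days 1 and 7. Of 19 genes of this list tested, 9 were lower and 10 higher in the mean (8 and 11 with median centring), where 54.7% of all genes were lower.

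Class I and class II antigen genes differed little. B2m, the light chain of class I molecules, differed by -0.19, -0.05 and 0.08 on the 3 days. Of 15 class I pathway genes tested, all 15 were lower on day 3 (13 with median centring), against 54.8% of all genes. Their median was -0.31. On day 7 the direction turned with the scaling, with 10 higher as deposited and 5 higher after quantile normalization. The RT1 class I genes are near-identical copies of each other, so the signal of one may come in part from another, and donor and recipient alleles cannot be told apart. Cd74, the invariant chain of class II molecules, had 3134, 6891 and 18182 in treated grafts against 2754, 7815 and 17139.8 in untreated grafts.

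Chemokines and their receptors differed in opposite directions on days 3 and 7. On day 3, 32 of the 34 genes tested were lower in the treated graft (29 with median centring), against 54.8% of all genes. Their median was -0.69. On day 7, 25 were higher, against 47.7% of all genes, with a median of 0.40. Ccl19, which guides T cells and dendritic cells through the receptor Ccr7, had 591, 538 and 2582 in treated grafts against 595, 878 and 612 in untreated grafts. The treated graft of day 7 alone stood out, with a difference of 2.05 on that day. Cxcl13, which draws B cells, had 1271, 2031 and 5329.7 in treated grafts against 2539, 2757 and 2888 in untreated grafts, lower on the first 2 days and higher on the last. Cxcl12, the ligand of Cxcr4, had 2008, 2513 and 4711 in treated grafts against 1977, 4252 and 2233 in untreated grafts. The neutrophil chemokines Cxcl1, Cxcl2 and Cxcl6 were lower on day 3 by -0.78, -0.78 and -1.17 and higher on day 7 by 0.95, 0.86 and 1.96. Under cyclosporine alone the day 7 differences were 1.75 for Ccl19, 0.83 for Cxcl13, 0.86 for Cxcl12 and 0.99 for Cxcl6.

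Cell division genes were slightly higher in treated grafts on day 1 and lower on days 3 and 7. Aurka, the kinase that matures the mitotic spindle, had 139, 325 and 441 in treated grafts against 192, 561 and 735 in untreated grafts, lower every day (mean difference -0.63 ± 0.11, adjusted p = 0.172). Mki67, the marker of cycling cells, had 395, 885 and 1565 in treated grafts against 241, 1144 and 1957 in untreated grafts. Fen1, a nuclease of DNA replication, had 432, 328 and 531 in treated grafts against 448, 542 and 854 in untreated grafts. Of 44 genes tested, 38 were higher on day 1, 43 were lower on day 3 and all 44 were lower on day 7, under each scaling, against 46.3%, 54.8% and 52.3% of all genes. The medians were 0.17, -0.46 and -0.27. Cyclosporine alone gave medians of 0.42, -0.23 and -0.11 against the same untreated grafts.

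Genes of the unfolded protein response, which raises chaperones and folding enzymes when the endoplasmic reticulum is loaded, were lower by a small and even amount. Hspa5, the chaperone BiP that gates this response, had 8936, 7394 and 7398 in treated grafts against 10516, 10099 and 8689 in untreated grafts (mean difference -0.31 ± 0.05, adjusted p = 0.172). The treated graft was lower on each day, and the groups overlapped only between the treated graft of day 1 and the untreated graft of day 7. Dnajc3, a co-chaperone that restrains the kinase PERK, had 1425, 1386 and 1192 in treated grafts against 1688, 1777 and 1482 in untreated grafts, with no overlap (-0.30 ± 0.05, adjusted p = 0.169). Sel1l, a part of the complex that clears misfolded proteins, had 716, 589.6 and 609 in treated grafts against 837, 778 and 785 in untreated grafts, again with no overlap (-0.32 ± 0.06, adjusted p = 0.188). Xbp1, whose spliced form switches these genes on, had 4581, 4658 and 4854 in treated grafts against 4994, 5576 and 5091 in untreated grafts (-0.15 ± 0.06, adjusted p = 0.297). Of 24 genes tested, 24 were lower on day 1 and 23 in the mean (20 with median centring), against 53.7% and 54.7% of all genes. In 6 of them all treated arrays lay below all untreated ones, where 2.24% of all genes did so. By unadjusted p, 15 of the 24 were lower, against 9.83% of all genes. The exception was Ddit3, the factor CHOP that promotes cell death under this stress, with 947, 1345 and 1039 in treated grafts against 1037, 1000.5 and 1128 in untreated grafts. The list's medians were -0.18, -0.24 and -0.11 with the peptide, and -0.17, -0.28 and -0.10 under cyclosporine alone, where both comparisons use the same untreated arrays.

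The endoplasmic reticulum stress element, the letters CCAAT, any 9 bases and CCACG on either strand, was in 22 of the 33469 promoters (0.0657%) and in 7 of the 21 genes of this list that have a promoter sequence (33.3%). These 7 were Hspa5, Hsp90b1, Creld2, Canx, Xbp1, Dnajc3 and Calr. The list was chosen for this response, so its share again describes the list and not the treatment. Neither this element nor the interferon element above contains the other. The 3 promoters whose genes are described above are shown with the element in capitals, on the gene strand. It begins 43 bases before the start of Hspa5 (chr3:38452766-38453065), 133 before that of Dnajc3 (chr15:102432417-102432716) and 65 before that of Xbp1 (chr14:84604373-84604672), all on the plus strand of GRCr8.
Hspa5: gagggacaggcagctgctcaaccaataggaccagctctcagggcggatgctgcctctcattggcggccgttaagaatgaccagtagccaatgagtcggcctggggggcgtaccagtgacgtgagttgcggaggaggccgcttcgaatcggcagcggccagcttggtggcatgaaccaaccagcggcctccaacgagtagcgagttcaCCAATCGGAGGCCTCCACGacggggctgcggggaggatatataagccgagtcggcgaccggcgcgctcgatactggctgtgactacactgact
Dnajc3: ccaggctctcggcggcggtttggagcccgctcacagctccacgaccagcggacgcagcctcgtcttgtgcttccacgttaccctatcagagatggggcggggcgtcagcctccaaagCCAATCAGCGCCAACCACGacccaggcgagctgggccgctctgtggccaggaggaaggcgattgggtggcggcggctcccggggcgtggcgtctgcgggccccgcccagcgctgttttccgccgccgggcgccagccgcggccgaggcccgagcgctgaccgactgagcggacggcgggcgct
Xbp1: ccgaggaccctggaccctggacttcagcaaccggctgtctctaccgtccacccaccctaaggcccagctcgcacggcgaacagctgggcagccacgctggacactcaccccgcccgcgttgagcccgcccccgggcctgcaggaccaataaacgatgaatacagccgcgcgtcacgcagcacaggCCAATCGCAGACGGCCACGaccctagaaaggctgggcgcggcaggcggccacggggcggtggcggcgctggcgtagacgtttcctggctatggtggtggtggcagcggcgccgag
Canx and Calr carry the element too and differed by -0.03 ± 0.04 and -0.11 ± 0.07 in the mean (adjusted p of 0.757 and 0.453), less than Hspa5 and Dnajc3.

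Immediate early genes, which switch on within minutes of a stimulus and also of tissue handling, leaned the same way. Ier2 had 891, 1013 and 1043 in treated grafts against 1087, 1517 and 1339.5 in untreated grafts, with no overlap (-0.40 ± 0.07, adjusted p = 0.172). Socs3, the feedback inhibitor of interleukin-6 signalling, had 459, 466 and 387 in treated grafts against 674, 604 and 511 in untreated grafts, also with no overlap (-0.43 ± 0.10, adjusted p = 0.195). Dusp6, a phosphatase that switches off the kinase ERK, had 1653, 1863 and 3386 in treated grafts against 2029, 2394 and 4570.5 in untreated grafts, lower on each day (-0.36 ± 0.06, adjusted p = 0.172). Fos differed mainly on day 3, with 1633 in the treated and 4095 in the untreated graft. Jun and Jund were higher by small amounts on every day, between 0.02 and 0.17. Of 32 genes tested, 25 were lower in the mean (26 with quantile normalization, 23 with median centring), against 54.7% of all genes. In 6 of the 32 every treated array lay below every untreated one, against 2.24% of all genes.

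Heart muscle transcripts were higher in treated grafts. Myh6, the fast myosin heavy chain of the adult rat heart, had 4042, 3473 and 1783 in treated grafts against 3313, 1695 and 859 in untreated grafts (mean difference 0.78 ± 0.17, adjusted p = 0.195). Its signal declined over the days in both groups, and each treated graft was above the untreated graft of the same day. Jph2, which holds the T-tubule to the sarcoplasmic reticulum, had 2671, 3083 and 2512 in treated grafts against 2172, 1990.3 and 2004 in untreated grafts, with every treated array above every untreated one (0.42 ± 0.08, adjusted p = 0.172). Hrc, a calcium-binding protein of the sarcoplasmic reticulum, had 4745, 4796 and 1842 in treated grafts against 4554, 3840.0 and 977 in untreated grafts. Asph and Kcnip2, which encode junctin and a subunit of the transient outward potassium channel, were higher in the mean by 0.47 ± 0.12 (adjusted p = 0.208) and 0.43 ± 0.12 (adjusted p = 0.22). Atp2a2, the calcium pump of the sarcoplasmic reticulum, did not share this, with 5173, 5197 and 5411 in treated grafts against 5358, 5493 and 5887 in untreated grafts. Of 25 genes for calcium handling and ion channels, 21 were higher in the mean (20 with quantile normalization, 22 with median centring) and 10 by unadjusted p, against 45.3% and 5.89% of all genes. Of 29 contractile genes, 25 were higher in the mean (27 with median centring) and 10 by unadjusted p, against the same shares. Myh7, the slow myosin that is raised when the rat heart is loaded, differed by 0.02, 0.22 and 0.05, and the natriuretic peptide gene Nppa by -0.04, -0.06 and -0.04.

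Mitochondrial genes were higher by small amounts. All 47 nuclear genes of oxidative phosphorylation that were tested had a mean difference above 0 under each scaling, against 45.3% of all genes. Their median was 0.10, and all 47 were higher on day 3 (46 with quantile normalization), against 45.2% of all genes. The daily medians were 0.03, 0.17 and 0.10, and 12 of the 47 were higher by unadjusted p, against 5.89% of all genes. The largest mean difference was in Cox7a1, the muscle form of a cytochrome oxidase subunit, with 929, 389 and 284 in treated grafts against 972, 224 and 214 in untreated grafts. Cox8b, another muscle-type subunit, had 9945, 8039 and 4519.5 in treated grafts against 9835, 6220.2 and 3064 in untreated grafts. The other 45 had mean differences of 0.19 or less. Of 28 genes of the citrate cycle and linked pathways, 27 were higher in the mean (26 with quantile normalization), against 45.3% of all genes. They were led by Oxct1, which feeds ketone bodies into the cycle, at 0.24 ± 0.09 (adjusted p = 0.269). Ppargc1a, the coactivator of mitochondrial genes, had 1134, 1214 and 547 in treated grafts against 955, 779 and 415 in untreated grafts (0.42 ± 0.09, adjusted p = 0.195). Slc2a4, the insulin-responsive glucose transporter of muscle, had 2246, 3374 and 1629 in treated grafts against 1841, 1850.0 and 1077 in untreated grafts (0.58 ± 0.12, adjusted p = 0.193). Summed heart muscle markers were also higher each day in treated grafts, and their part in these values was not tested. Under cyclosporine alone the oxidative phosphorylation medians were -0.02, 0.22 and 0.13.

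**Figure D4:**
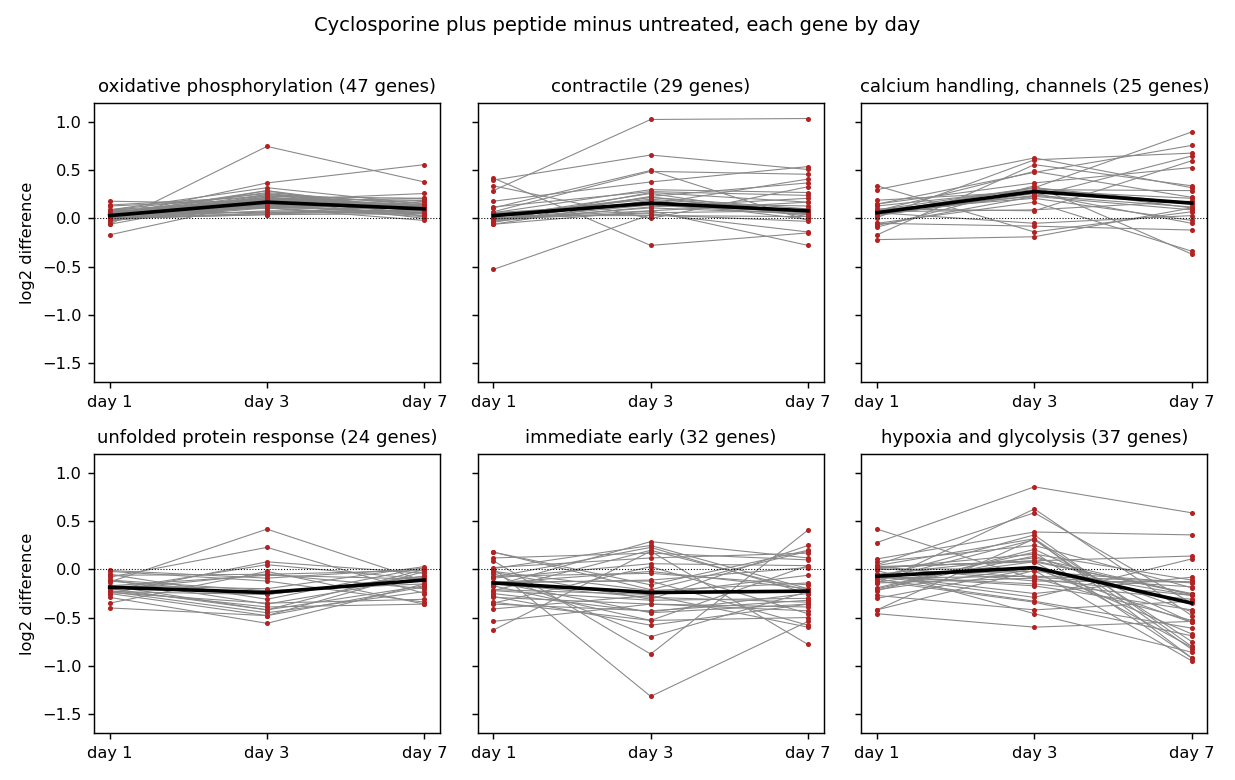
Same-day log2 difference of each tested gene of 6 muscle and stress lists, with thin grey lines joining the days of 1 gene and the thick black line joining the medians. The oxidative phosphorylation genes form a narrow band above 0 on day 3, the unfolded protein response genes lie below 0 on day 1, and hypoxia and glycolysis genes drop to a median of -0.35 on day 7.

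Genes of hypoxia and glycolysis were lower in the treated graft of day 7. Slc2a1, the glucose transporter induced by hypoxia, had 1339, 2081 and 1853 in treated grafts against 1791, 1663 and 3527 in untreated grafts. Ndrg1, another hypoxia-induced gene, had 1854, 2999 and 3033 in treated grafts against 2117, 2652 and 5737 in untreated grafts. The untreated graft of day 7 was the highest of the 6 arrays for both. The lactate exporter Slc16a3 was lower by -0.95 and the first enzyme of glycolysis in muscle, Hk2, by -0.75 on that day. Of 37 genes tested, 33 were lower on day 7 under each scaling, where 52.3% of all genes were, with a median of -0.35. On day 1 the median was -0.07, and on day 3 it was 0.02 (0.11 with median centring). Arg1, the arginase that marks repair-type and suppressive macrophages, had 1978, 3068 and 1247 in treated grafts against 2196, 3129 and 7743 in untreated grafts, a day 7 difference of -2.62, against -2.65 under cyclosporine alone. The untreated graft of day 7 stood far above the other 5 arrays. Ass1, which makes arginine from citrulline, had 4087 in the treated and 6958 in the untreated graft of day 7, and Hmox1, which degrades heme, had 6813 and 11021. Of 26 macrophage and monocyte genes tested, 15 were lower and 11 higher on day 7 (13 and 13 with median centring). Over all genes 52.3% were lower on that day, and the median of the list was -0.04. Csf1r had 6599 in the treated and 7113 in the untreated graft of that day, Cx3cr1 differed by -0.72, Cd14 by -0.49 and Adgre1 by 0.36. The inhibitory Fc receptor Fcgr2b was lower, with 1401, 1771 and 1640.1 in treated grafts against 1657, 2621 and 3912 in untreated grafts (mean difference -0.68 ± 0.17, adjusted p = 0.201).

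On day 7 the treated graft held more matrix and smooth muscle RNA. Myh11, the smooth muscle myosin, had 1122, 1091 and 1318 in treated grafts against 1310.2, 1391 and 471 in untreated grafts. Actg2, the actin of visceral smooth muscle, had 768, 904 and 2182 in treated grafts against 1024, 1230.4 and 818 in untreated grafts. Each was slightly lower on days 1 and 3 and higher on day 7, by 1.46 for Myh11 and 1.40 for Actg2. Under cyclosporine alone the day 7 differences were 0.64 and 0.26. Of 18 smooth muscle and pericyte genes tested, 14 were higher on day 7 (15 under both other scalings), against 47.7% of all genes. Their median was 0.45 (0.07 under cyclosporine alone). Of 44 matrix genes, 31 were higher on day 7 (33 with median centring), against the same 47.7%, with a median of 0.33. Postn, which encodes periostin made by activated fibroblasts, had 4634, 11926 and 11060.2 in treated grafts against 4406, 13054 and 5762 in untreated grafts. Eln, which encodes elastin, had 1575, 1725 and 914 in treated grafts against 1273, 1439 and 446 in untreated grafts. Mmp12, the macrophage elastase, went the other way, with 519, 900.3 and 824 in treated grafts against 292, 650.4 and 2075 in untreated grafts. These differences stand on the array that also held pancreatic transcripts, and the part of other tissue in them was not tested.

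Of 22 complement and coagulation genes tested, 11 were lower and 11 higher on day 7 (9 and 13 with median centring). Over all genes 52.3% were lower on that day. Plaur, the receptor that holds urokinase at the cell surface, had 615, 929 and 673 in treated grafts against 935, 1075 and 1277 in untreated grafts, with every treated array below every untreated one (mean difference -0.57 ± 0.13, adjusted p = 0.195). Its ligand Plau had 604, 1107 and 1664 in treated grafts against 831, 1266 and 3079 in untreated grafts. Both were furthest apart on day 7, with differences of -0.91 and -0.88, against -0.95 and -0.94 under cyclosporine alone. Complement genes went both ways on that day. The proteases C1r and C1s differed by 0.71 and 0.59 and properdin, Cfp, by 0.81, while C1qa and C1qb differed by 0.00 and -0.05 and the complement inhibitor Cd59b by -0.50.

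Genes linked to regulatory and inhibited T cells showed no common direction over the days, and in a whole graft their signal need not come from T cells. Il2ra, the high-affinity interleukin-2 receptor chain, had 209, 198 and 497 in treated grafts against 191, 228 and 426 in untreated grafts, and the inhibitory receptor Ctla4 had 81.0, 73.6 and 273 against 54.4, 80.8 and 298. Neither gene kept 1 direction over the days. Entpd1, the surface enzyme CD39 that removes extracellular ATP, had 254, 268 and 304 in treated grafts against 376, 362 and 325 in untreated grafts, with no overlap (mean difference -0.35 ± 0.12, adjusted p = 0.248). The T cell gene Cd3d had 38.4, 149.7 and 1926 in untreated grafts, and which cells gave the Entpd1 signal was not tested. Of 10 such genes tested, 9 were lower on day 3 (8 with median centring), against 54.8% of all genes. On day 7, 7 were lower (6 with median centring), against 52.3% of all genes.

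Endothelial genes were close on day 1 and higher in the treated graft of day 7. Aqp1, the water channel of heart capillaries, had 6344, 6956 and 1474 in treated grafts against 7494, 4977 and 956 in untreated grafts, and Cldn5, a tight junction protein, had 1831, 1444 and 618 against 1950.2, 1113 and 417. Both genes were lowest on day 7 in each group. Of 24 endothelial genes tested, 17 were higher on day 7 under each scaling, against 47.7% of all genes. Their median was 0.25 (0.08 under cyclosporine alone). Several lists stayed near 0: type I interferon genes had daily medians of 0.01, -0.08 and 0.02, heat shock genes -0.01, 0.06 and -0.08, and fatty acid oxidation genes -0.08, 0.06 and 0.10.

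The highest differences of day 7 were in pancreatic enzymes. Prss1, which encodes trypsinogen, had 66.2, 46.6 and 910.4 in treated grafts against 58.3, 55.4 and 51.1 in untreated grafts, and the amylase gene Amy2a3 had 19.4, 10.7 and 539 against 11.4, 6.14 and 16.4. Only the treated graft of day 7 was high. Ctrb1 had 698 on that array against 41.2 in the untreated graft of the day, Cela2a 639.8 against 53.1, Prss3b 907 against 108, Cpb1 464 against 63.2 and the lipase gene Pnlip 559 against 114. In the cyclosporine-only graft of day 7 these 7 genes differed from the untreated graft by between 0.10 and 0.50. The trypsin and amylase genes belong to families of near-identical copies, so the copy is uncertain. These genes did not pass the filter on low signal and were not tested. Liver markers did not accompany them, with a summed 742 in the treated and 829 in the untreated graft of that day. Apart from these genes, Aldh1a1, which makes retinoic acid, had 3479, 2295 and 1089 in treated grafts against 3721, 2046 and 146 in untreated grafts, and Abca8a, a lipid transporter, had 2328, 2163 and 522 against 2153, 1333 and 96.5. Both declined by day 7 in each group, and further in the untreated graft. Under cyclosporine alone their day 7 differences were 2.19 and 1.94.

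**Figure D5:**
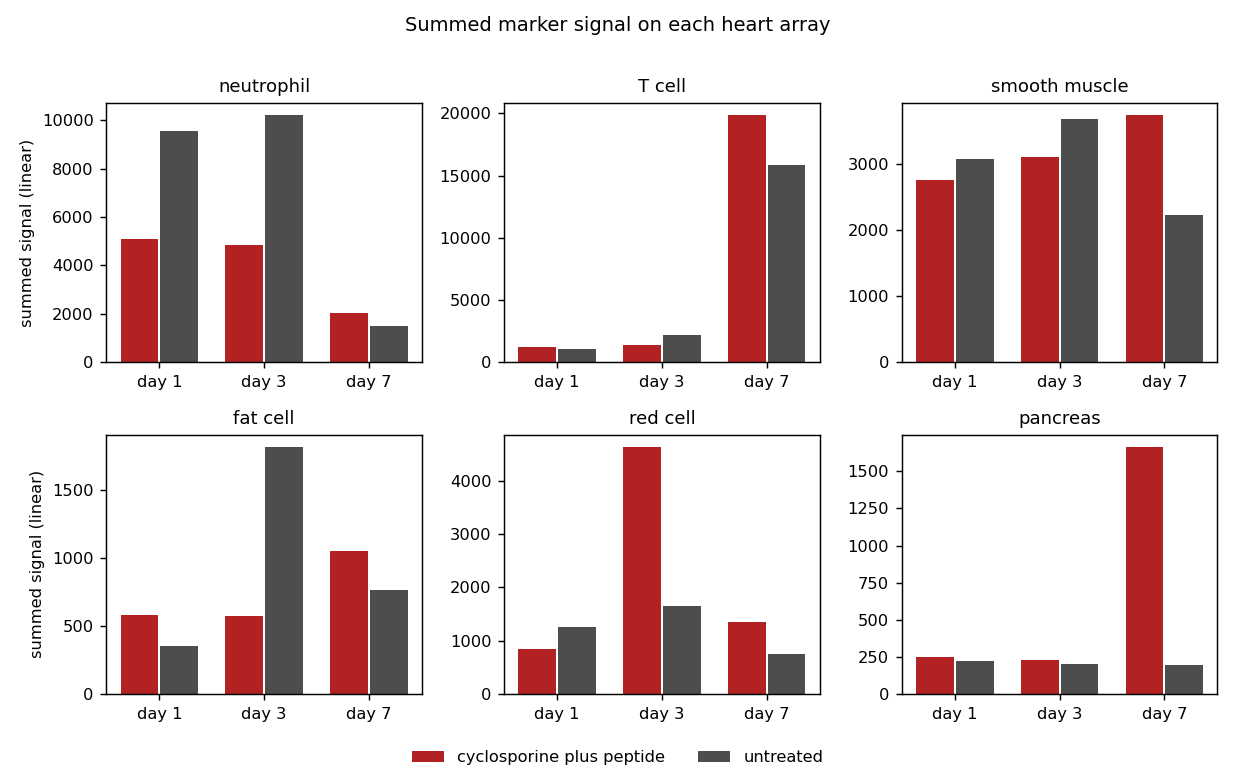
Summed linear signal of marker genes on each of the 6 arrays, with treated grafts in red to the left of untreated grafts in grey. Neutrophil markers are at 5096 and 4855 in treated grafts of days 1 and 3 against 9565 and 10191 in untreated grafts, and pancreas markers are at 1664 in the treated graft of day 7 alone.

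Single grafts also differed in other tissues and cells. On day 1 platelet genes were lower in the treated graft, with Tubb1, the tubulin of platelets, at 299 against 936 in the untreated graft, and Itga2b at 88.2 against 244. Summed platelet markers were 2316, 4155 and 2382 in treated grafts and 3528, 4357 and 1899 in untreated grafts. On day 3 the treated graft had more red cell transcripts, with Alas2, the first enzyme of heme synthesis in red cells, at 3995 against 1325. Some genes of airway or squamous epithelium were higher there too, with Bpifa1 at 620.0 against 132 and Krt14 at 737 against 243. Scgb3a1, at 149.7 against 10.1, was the highest difference of that day, 2.67. Other squamous genes went the other way on day 3, with Krt5 at 601 in the treated and 677 in the untreated graft. Sprr1a stood at 180.2 and 690.4, so no common direction of squamous genes can be read. Fat cell genes ran in both directions. Scd, the fatty acid desaturase, had 242, 53.2 and 362 in treated grafts against 61.5, 391 and 154 in untreated grafts, and Adipoq, the adipocyte hormone, had 317, 298 and 635 against 177, 969 and 426. The treated graft was above the untreated one on days 1 and 7 and below it on day 3 in both genes. Summed fat cell markers followed the same order, at 585, 573 and 1056 in treated grafts and 354, 1819.7 and 764 in untreated grafts.

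Whether adding the peptide changed the graft beyond cyclosporine could be tested only against the 3 cyclosporine-only arrays. Of 19734 probe sets, 0 passed an adjusted p of 0.05 (0.00%), the lowest adjusted p was 0.906, and 954 passed an unadjusted p (4.83%), fewer than the 987 that would be called if none differed. Cyclosporine alone against the same untreated arrays gave 0 at the adjusted threshold (0.00%) and 2287 at the unadjusted one (11.6%). Both comparisons share the untreated grafts, so likeness between them is no independent evidence. Set side by side, the mean difference of Slc47a1 from untreated grafts was -1.34 with the peptide and -0.77 under cyclosporine alone. The direct contrast between these 2 treatments was -0.58 ± 0.25 (adjusted p = 0.954, limma). The cell division list had a median of -0.24 for cyclosporine plus peptide minus cyclosporine, over its 44 tested genes. Over all genes the median of this contrast was -0.02, with an SD of 0.11. The median of the list was not tested. A further fit asked whether the difference from untreated grafts changed in proportion to log2(day). It gave 0 probe sets at the adjusted threshold (0.00%, lowest adjusted p of 1) and 99 at the unadjusted one (0.502%). That is far fewer than the 987 that would be called if none differed. The fit had no day factor, so day changes off a straight line stayed in its error, and a line hardly registers a dip on day 3. It therefore cannot decide whether days differ, and the contrasts between days described above have no test behind them that passes.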

How the data were processed

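RNA from 18 samples was hybridised to Affymetrix-type rat arrays, and 9 heart arrays entered the fit, of which 6 are the comparison described here. Per the labels' protocols, total RNA was extracted from pulverised grafts and labelled as biotin cRNA. Each probe set has 1 deposited intensity per array, on a linear scale, and for the software and normalization the sources used here give nothing. All 18 columns matched 1 sample each, and 0 columns were left unused. The labels do not say that samples came from separate animals, so p-values cover only how these samples spread, and that spread may be technical. With 1 array per treatment and day, the spread in the fit is how far treatment differences vary from day to day. No spread among like samples was measured, and a difference that turns between days widens its own SE.

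Values below 0 (771 in the table) were set to 0, 16 was added and log2 taken. Of 31099 probe sets, 57 controls were left out, and 19734 of the rest were above their array's 40th percentile in at least 3 of the 9 arrays and were tested. limma 3.58.1 in R 4.3.3 fitted treatment and day with a trended prior, leaving 4 residual degrees of freedom, with Benjamini-Hochberg adjustment over the tested probe sets. A slope on log2(day) was a second fit. Same-day differences compare 1 array with 1 array and have no test. With 1 array per treatment and day, the number of arrays limits the precision. The fit was tested on simulated data. Of the non-control probe sets, 20826 have 1 symbol in the platform annotation, 436 several and 9780 none. For each of 14217 genes the probe set with the highest mean over the 18 arrays was used.

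The genes named are the 15 per direction with the largest smallest-of-3 same-day difference, the 10 largest per day and direction, the 8 per direction whose day 7 difference opposes the other days, up to 5 by mean and 5 by single-day difference in each gene list, and the cell markers. Other members were named for their known role after their values were seen. The members and lists were chosen with earlier results of these data known. Promoters come from RefSeq, build GRCr8. Alternatives were other scalings, pseudocounts, filters, fits and leaving out each day.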

Additional observations from a re-analysis of the deposited data

Results flagged for a closer look

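Some differences between treated and untreated grafts ran one way on days 1 and 3 and the other way on day 7. The difference between days was tested only by the slope on log2(day), where no probe set passed and the lowest adjusted p was 1, and the list medians were not tested. That slope fit had no day factor and a wide error, so it had little power to find such a turn.

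Among gene lists, the neutrophil median was -0.88 on day 1, -0.92 on day 3 and 0.16 on day 7. The acute phase median was -0.26, -0.95 and 0.31 on the same days, and the chemokine median was -0.13, -0.69 and 0.40. Adhesion genes had medians of -0.11, -0.21 and 0.20, and nerve genes had -0.10, -0.17 and 0.31. Among single genes, S100a9 differed by -0.92, -1.10 and 0.79. Il1r2, the decoy receptor of interleukin-1, differed by -0.89, -0.73 and 0.60, with 954, 1052 and 271 in treated grafts against 1782, 1752 and 173 in untreated grafts. C2h3orf80 differed by -0.50, -0.57 and 0.98. Over all genes tested, 1354 (12.1%) were lower on days 1 and 3 and higher on day 7.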

How the results depend on the processing

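No probe set passed the adjusted threshold for cyclosporine plus peptide against untreated grafts under any alternative tried except without the day 7 arrays, so that leaving out each day gave counts of 0 to 1. The 1 probe set called without day 7 has no gene name in the annotation (estimate -1.60, SE 0.09, adjusted p = 0.00974). The comparison's lowest adjusted p lay between 0.117 and 1 over the other alternatives. The comparison with cyclosporine alone and the slope gave 0 in every alternative. Day served as the replicate block, and without the block 0 probe sets were called and 246 passed an unadjusted p, against 3157 with it. That unadjusted count was 2071 without day 7. For the comparison with cyclosporine alone it was 1545 with no filter, 468 with the 60th percentile filter, 1582 with the 6 arrays only, 83 without the block and 612 to 782 when each day was left out, against 954. For the slope it was 419 with no filter and 38 with the 60th percentile filter, against 99. Of the list medians over all days, 3 reversed when a day was left out. Acute phase genes (-0.28 with all days) ranged from -0.70 without day 7 to 0.17 without day 3. Matrix genes (0.13) ranged from -0.04 without day 7 to 0.20 without day 3, and smooth muscle genes (0.12) from -0.11 without day 7 to 0.22 without day 1. With 1 array per treatment and day, no same-day difference has a replicate.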
